A study of Mus musculus with 6 samples.

Results

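The genes described here are 10 genes of antigen presentation by the major histocompatibility complex (MHC), selected by gene symbol from the 20632 genes of the deposited table. Of these, 5 belong to the class II pathway (*Cd74*, *H2-Aa*, *H2-Ab1*, *H2-Eb1* and *H2-DMa*) and 5 to the class I pathway (*H2-K1*, *H2-D1*, *B2m*, *Tap1* and *Tapbp*). All 10 genes passed the filter on low counts, which kept 12116 genes. RNA was measured in whole hind limb muscle (TA, EDL, GA, SOL and Q together) of unexercised male C57BL/6 mice aged 3 months, with 1 library per mouse. The 3 Baf155ΔMF mice carried MCK-Cre and floxed *Baf155* (genotype label Baf155 -/-), and the 3 Baf155WT mice (labelled wild type) carried floxed *Baf155* without Cre. MCK-Cre is driven by the muscle creatine kinase promoter and acts in skeletal and cardiac muscle fibers, so the other cells of the tissue keep *Baf155*. The comparison asks which transcripts differ in muscle after loss of Baf155, a core subunit of the SWI/SNF chromatin remodeling complex, before any exercise.

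MHC class I molecules are found on nearly all nucleated cells and present peptides from the cytosol to CD8+ T cells. Peptides made by the proteasome are moved into the endoplasmic reticulum by the TAP transporter, and tapasin helps to load them onto a heavy chain paired with β2-microglobulin. MHC class II molecules are made mainly by macrophages, dendritic cells and B cells and present peptides from endocytosed material to CD4+ T cells, with the invariant chain guarding the groove until H2-DM exchanges its remnant for a peptide. Skeletal muscle fibers make little class I and normally no class II. Class II genes are switched on by CIITA and class I genes by NLRC5, both of which act through the X and Y boxes of MHC promoters that RFX and NF-Y bind. Interferons raise both classes, in part through IRF1.

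Except *B2m* and *Cd74*, the genes lie in the mouse MHC on chromosome 17 of GRCm38 (gene models of GENCODE M21). From the centromeric side these are *Tapbp* (33915899 to 33929292), *H2-K1* (33996017 to 34000347), *H2-DMa* (34119541 to 34139101), *Tap1* (34187553 to 34197225), *H2-Ab1* (34257689 to 34269419), *H2-Aa* (34282744 to 34287823), *H2-Eb1* (34305867 to 34316674) and *H2-D1* (35262730 to 35267499). *B2m* is on chromosome 2 (122147686 to 122153083); *Cd74* lies on another chromosome outside the MHC. RefSeq promoter windows on GRCm38.p6, each of 250 bases before and 50 bases after a start site, were held for 8 of the 10 genes. Neither *H2-Ab1* nor *Cd74* had one. For *H2-D1*, *H2-DMa* and *Tapbp* the RefSeq windows lie inside the GENCODE spans given above. Positions counted from a start site below therefore refer to the RefSeq start.

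The promoters of 2 class II chains and 3 class I genes are shown, and both MS15 mice were the highest for each of the 5. *H2-DMa*, which also had a window and both MS15 mice highest, is not shown. Each stretch ends at the base before the start site and reads 5′ to 3′ on the strand of the gene. Capitals mark the core of the Y box (CCAAT, or ATTGG where it lies on the other strand), the core of the X1 box (AGCAAC, in *H2-Eb1*) and the interferon response element (2 GAAA runs with any 2 bases between them, in *B2m*).
H2-Aa, chr17:34287824-34287923, minus strand: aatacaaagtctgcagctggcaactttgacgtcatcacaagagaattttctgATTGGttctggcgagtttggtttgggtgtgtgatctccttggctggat
H2-Eb1, chr17:34305767-34305866, plus strand: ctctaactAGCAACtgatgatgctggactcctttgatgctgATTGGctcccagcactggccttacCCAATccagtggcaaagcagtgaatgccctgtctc
H2-K1, chr17:34000348-34000447, minus strand: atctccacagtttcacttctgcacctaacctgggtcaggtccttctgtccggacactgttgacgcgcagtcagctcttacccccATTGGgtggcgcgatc
H2-D1, chr17:35262994-35263093, plus strand: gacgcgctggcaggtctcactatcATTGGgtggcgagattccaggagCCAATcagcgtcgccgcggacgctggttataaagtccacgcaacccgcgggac
B2m, chr2:122147537-122147686, plus strand: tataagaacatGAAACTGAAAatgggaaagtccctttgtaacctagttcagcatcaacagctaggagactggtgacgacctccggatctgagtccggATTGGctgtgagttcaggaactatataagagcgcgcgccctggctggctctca

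The letters were searched on both strands. Positions are counted back from the start site to the first base of a match, with -1 the base before the start. In the stretches shown, the Y box core began at -48 in *H2-Aa*, at -59 and -35 in *H2-Eb1*, at -76 and -53 in *H2-D1*, at -16 in *H2-K1* and at -53 in *B2m*. It was present in at least 1 window of all 8 genes with a window, and in 37.4% of all 32851 promoter windows of this length. The exact letters of the X1 core stood at -92 in *H2-Eb1* and in none of the other 7 genes, against 14.8% of all windows. The exact letters of the interferon response element stood at -139 in *B2m* alone among the 8 genes, against 3.44% of all windows. Only these exact letters were searched, so a window without a match may still hold a variant of the box or element. A match of letters is a description of the window and does not show that a factor binds there.

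Expression is given in CPM, read counts scaled to a common library size after TMM scaling of library sizes. The total per mouse was between 8426022 and 12469335 counts, and a count of 3, the floor used here, corresponded to 0.230 to 0.351 CPM, which covers counting error only. *Smarcc1*, the gene that encodes Baf155, was at 23.4, 19.5 and 17.0 CPM in Baf155WT mice and at 7.05, 6.54 and 7.72 CPM in Baf155ΔMF mice (log2 fold change -1.49 ± 0.15 SE, adjusted p = 0.00907, edgeR). Summed over 8 myofiber markers, the level was 144920 to 158322 CPM in the 6 mice. Sample titles begin with MS13 (1 Baf155WT and 2 Baf155ΔMF mice), MS14 (1 Baf155ΔMF mouse) or MS15 (2 Baf155WT mice), and the labels do not say what the prefix stands for. The first principal component held 43.3% of the variance of log2 CPM and put the MS15 mice at 25.0 and 22.5, with the other 4 mice between -17.1 and -1.56. MS13 is therefore the only prefix within which genotypes can be set side by side, and outside it prefix and genotype cannot be told apart. Mice are named below by prefix and genotype.

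No gene of either class passed the test between genotypes. The adjusted p was under 0.05 for 0 of the 10 genes, beside 3 of 12116 genes tested (0.0248%), and DESeq2 and limma-voom also called 0 of the 10. At an unadjusted p under 0.05, 4 of the 5 class II genes and 0 of the 5 class I genes were lower in Baf155ΔMF mice, beside 4.6% of all genes tested. The values of Baf155WT and Baf155ΔMF mice overlapped for all 10 genes, whereas all Baf155ΔMF mice lay below all Baf155WT mice for 5.57% of genes tested. With 3 mice against 3, 0.1 is the smallest p that a two-sided exact permutation test of 1 gene allows. In whole muscle, fewer cells of a type and less RNA per cell cannot be told apart.

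The class II genes shared a single profile, high in both MS15 Baf155WT mice and lower in the other 4 mice of either genotype. *Cd74* encodes the invariant chain, which escorts class II molecules out of the endoplasmic reticulum. Its level was 61.4 CPM in the MS13 Baf155WT mouse, 154 and 117 CPM in the MS15 Baf155WT mice, 53.8 and 61.1 CPM in the MS13 Baf155ΔMF mice and 76.4 CPM in the MS14 Baf155ΔMF mouse. The MS13 Baf155WT mouse thus lay inside the range of the Baf155ΔMF mice, and the MS15 mice lay above it. The means were 111 ± 46.8 CPM in Baf155WT and 63.7 ± 11.5 CPM in Baf155ΔMF mice (SD, n = 3 mice each), and the fitted ratio was 0.573 (95% confidence interval 0.384 to 0.854; log2 fold change -0.80 ± 0.26 SE; adjusted p = 0.601, edgeR).

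*H2-Aa* and *H2-Ab1* encode the α and β chains of I-A, the class II molecule on the surface of C57BL/6 cells. The level of *H2-Aa* was 25.1 CPM in the MS13 Baf155WT mouse and 74.8 and 56.8 CPM in the MS15 Baf155WT mice, against 24.7 and 30.0 CPM in the MS13 and 30.3 CPM in the MS14 Baf155ΔMF mice. For *H2-Ab1* these levels were 20.5 CPM, 62.8 and 46.5 CPM, 22.7 and 26.0 CPM, and 28.8 CPM in the same order. In both genes the MS15 mice stood apart from the other 4, and the MS13 Baf155WT mouse was lower than at least 2 of the 3 Baf155ΔMF mice. The fitted ratio was 0.540 (0.344 to 0.848) for *H2-Aa* and 0.593 (0.374 to 0.939) for *H2-Ab1*, with an adjusted p of 0.601 for both (edgeR).

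*H2-Eb1* encodes the β chain of I-E, whose α chain partner is defective in C57BL/6 mice, so that no I-E reaches the cell surface in this strain. Its level was 17.2 CPM in the MS13 Baf155WT mouse, 50.3 and 36.2 CPM in the MS15 Baf155WT mice, 15.5 and 22 CPM in the MS13 Baf155ΔMF mice and 23.7 CPM in the MS14 Baf155ΔMF mouse. The profile was that of the I-A chains (fitted ratio 0.586, 0.367 to 0.935, adjusted p = 0.601, edgeR). *H2-DMa* encodes a chain of H2-DM, the peptide exchanger of class II, and was the least abundant class II gene with 25 to 76 counts. It was at 2.43 CPM in the MS13 Baf155WT mouse, 5.81 and 5.62 CPM in the MS15 Baf155WT mice, 3.42 and 4.05 CPM in the MS13 Baf155ΔMF mice and 4.09 CPM in the MS14 Baf155ΔMF mouse. Here the MS13 Baf155WT mouse was the lowest of the 6 (fitted ratio 0.823, 0.527 to 1.29, adjusted p = 0.786, edgeR).

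**Figure D1:**
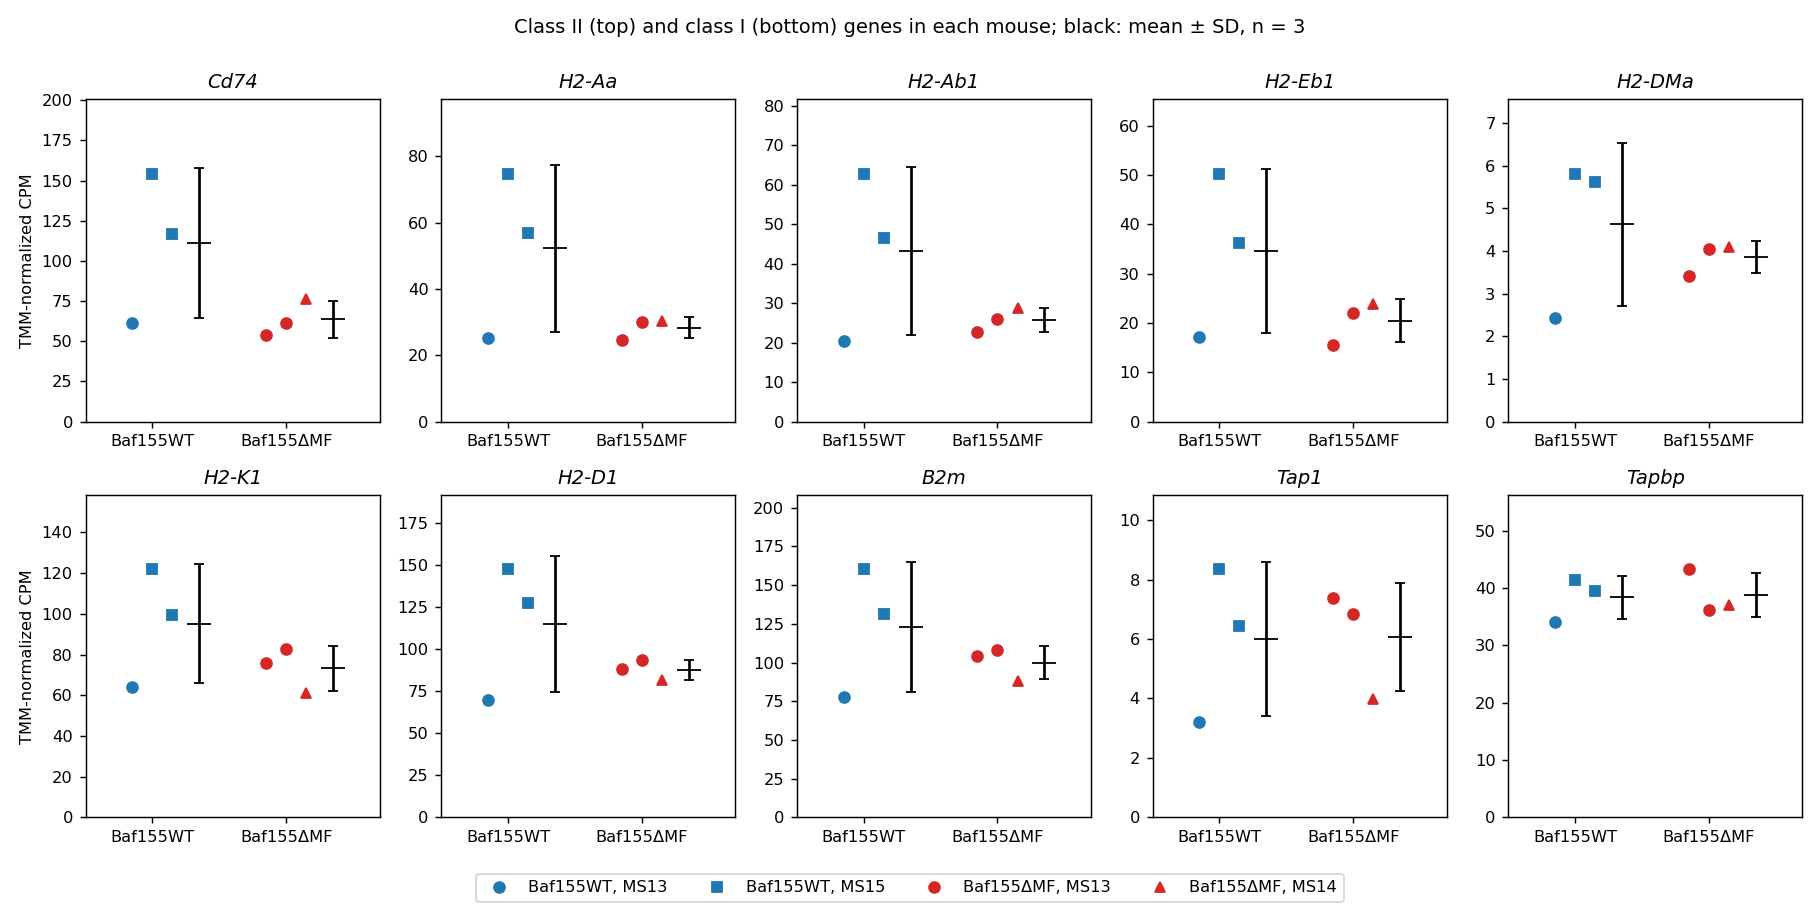
Level of each gene in each mouse, in TMM-normalized CPM on a linear axis that starts at 0, with class II genes in the top row and class I genes in the bottom row. Points are mice, with colour for genotype and marker shape for title prefix, and black marks give the mean ± SD of 3 mice. The 2 MS15 Baf155WT mice lie above the other 4 mice in all 5 class II panels and in those of *H2-K1*, *H2-D1* and *B2m*.

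In class I, the heavy chains and their light chain varied less between mice than class II, and the same MS15 mice were the highest. *H2-K1* and *H2-D1* encode the classical heavy chains, which hold the peptide. *H2-K1* was at 64.1 CPM in the MS13 Baf155WT mouse, 122 and 99.6 CPM in the MS15 Baf155WT mice, 76.0 and 82.7 CPM in the MS13 Baf155ΔMF mice and 61.2 CPM in the MS14 Baf155ΔMF mouse. For *H2-D1* the levels in this order were 69.7 CPM, 148 and 127 CPM, 88.1 and 93.9 CPM, and 82.0 CPM. The MS13 Baf155WT mouse was below all 3 Baf155ΔMF mice for *H2-D1* and below 2 of them for *H2-K1*. The fitted ratio was 0.769 (0.570 to 1.04, adjusted p = 0.627, edgeR) for *H2-K1* and 0.765 (0.554 to 1.06, adjusted p = 0.633, edgeR) for *H2-D1*.

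*B2m* encodes β2-microglobulin, the light chain that every class I heavy chain needs to fold. Its level was 77.7 CPM in the MS13 Baf155WT mouse, 160 and 131 CPM in the MS15 Baf155WT mice, 104 and 108 CPM in the MS13 Baf155ΔMF mice and 87.8 CPM in the MS14 Baf155ΔMF mouse (fitted ratio 0.811, 0.592 to 1.11, adjusted p = 0.688, edgeR). As for *H2-D1*, the MS13 Baf155WT mouse was the lowest and the MS15 Baf155WT mice were the highest.

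The genes of peptide transport and loading gave other profiles. *Tap1* encodes a subunit of the peptide transporter and was at 3.21 CPM in the MS13 Baf155WT mouse, 8.34 and 6.42 CPM in the MS15 Baf155WT mice, 7.37 and 6.85 CPM in the MS13 Baf155ΔMF mice and 3.98 CPM in the MS14 Baf155ΔMF mouse. High and low mice were thus found in both genotypes, and the means were 5.99 ± 2.59 and 6.07 ± 1.83 CPM (SD, n = 3 each; fitted ratio 1.00, 0.620 to 1.62, adjusted p = 0.997, edgeR). *Tapbp*, which encodes tapasin, varied least, at 34.1, 41.5 and 39.5 CPM in the MS13 and the MS15 Baf155WT mice and 43.2, 36.2 and 37.1 CPM in the Baf155ΔMF mice. Its interval was the narrowest of the 10 (fitted ratio 1.01, 0.854 to 1.20, adjusted p = 0.971, edgeR).

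Both MS15 Baf155WT mice lay above the other 4 mice for 8 of the 10 genes, 5 of 5 in class II and 3 of 5 in class I, beside 17.5% of all genes tested. Their mean was 2.21 to 2.67 times that of the MS13 Baf155WT mouse across the class II genes, 1.73 to 1.97 times for *H2-K1*, *H2-D1* and *B2m*, 2.30 times for *Tap1* and 1.19 times for *Tapbp*. Against the MS13 Baf155WT mouse alone, all 3 Baf155ΔMF mice were higher for 6 of the 10 genes (2 class II and 4 class I genes) and all 3 were lower for 0 of 10. Within MS13, the log2 difference between the Baf155ΔMF mean and the Baf155WT mouse was -0.10 for *Cd74*, 0.12 for *H2-Aa* and for *H2-Eb1*, 0.25 for *H2-Ab1* and 0.62 for *H2-DMa*. For the class I genes it was 0.31 for *H2-K1*, 0.39 for *H2-D1*, 0.45 for *B2m*, 1.15 for *Tap1* and 0.22 for *Tapbp*. With the prefix as a covariate, a fit in which MS13 alone bears on genotype, 0 of the 10 genes passed (adjusted p from 0.269 for *Tap1* to 0.995 for *H2-Eb1*, edgeR), with 1 Baf155WT mouse against 2 Baf155ΔMF mice.

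The result of the test depended on which Baf155WT mice were compared. Without the MS13 Baf155WT mouse, 7 of the 10 genes were called lower in Baf155ΔMF mice, beside 513 of 12288 genes tested (4.17%), but the 2 Baf155WT mice that remain are both MS15, so that prefix and genotype cannot be told apart in that fit. The 7 genes were *H2-Aa* (log2 fold change -1.22, adjusted p = 0.000151, edgeR), *H2-Ab1* (-1.09), *Cd74* (-1.09), *H2-Eb1* (-1.09), *H2-D1* (-0.64), *H2-K1* (-0.59) and *B2m* (-0.54). Without both MS15 mice, the fit of 1 against 3 mice gave an opposite sign for 8 of the 10 genes, from 0.05 for *Cd74* to 0.66 for *H2-DMa*, with an adjusted p of 0.999 for each of the 10 genes (edgeR). In this last fit the lone Baf155WT mouse is assumed to vary as the other mice do.

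**Figure D2:**
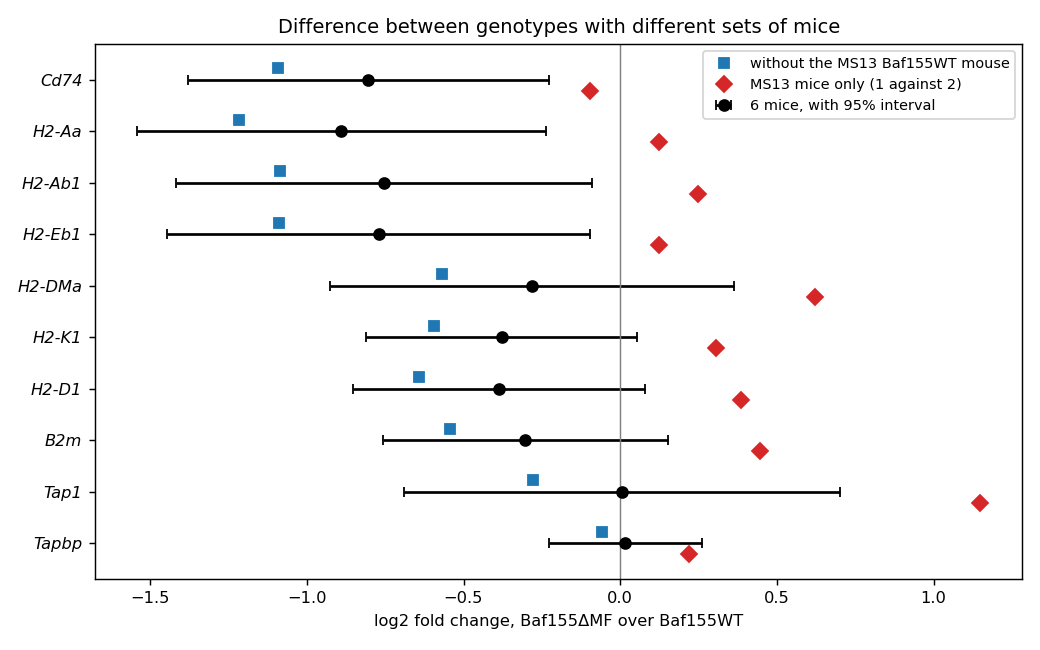
Log2 fold change of each gene, Baf155ΔMF over Baf155WT, on a linear axis. The points with 95% confidence intervals use all 6 mice, and the other symbols give the fit without the MS13 Baf155WT mouse and the difference within MS13, which is positive for all genes but *Cd74*.

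Levels of different genes were compared per kilobase of exon. The length was the union of all annotated exons of a gene, for example 2668 bases for *H2-DMa* and 2953 for *Tap1*. The order of genes depends on these lengths, and other lengths were not tried. *B2m* was the most abundant at 130 ± 35.0 CPM per kilobase (SD, n = 6 mice) and exceeded *Cd74* (61.7 ± 28.2) in 6 of 6 mice. *Cd74* was above *H2-K1* (50.9 ± 13.9) in 4 of 6 mice and *H2-K1* was above *H2-D1* (48.3 ± 14.1) in 4 of 6, so these neighbours were not separated. *H2-D1* exceeded *H2-Aa* (35.7 ± 18.3), *H2-Aa* exceeded *H2-Ab1* (28.5 ± 13.7) and *H2-Ab1* exceeded *H2-Eb1* (16.5 ± 7.99) in 6 of 6 mice each. *H2-Eb1* was above *Tapbp* (13.3 ± 1.18) in 4 of 6 mice, and *Tapbp* was above *Tap1* (2.04 ± 0.680) in 6 of 6. *H2-DMa* had the lowest mean, 1.59 ± 0.486 CPM per kilobase, and was below *Tap1* in 5 of 6 mice. The order of α chain, β chain and exchanger was therefore kept in every mouse although the class II level itself ranged widely.

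**Figure D3:**
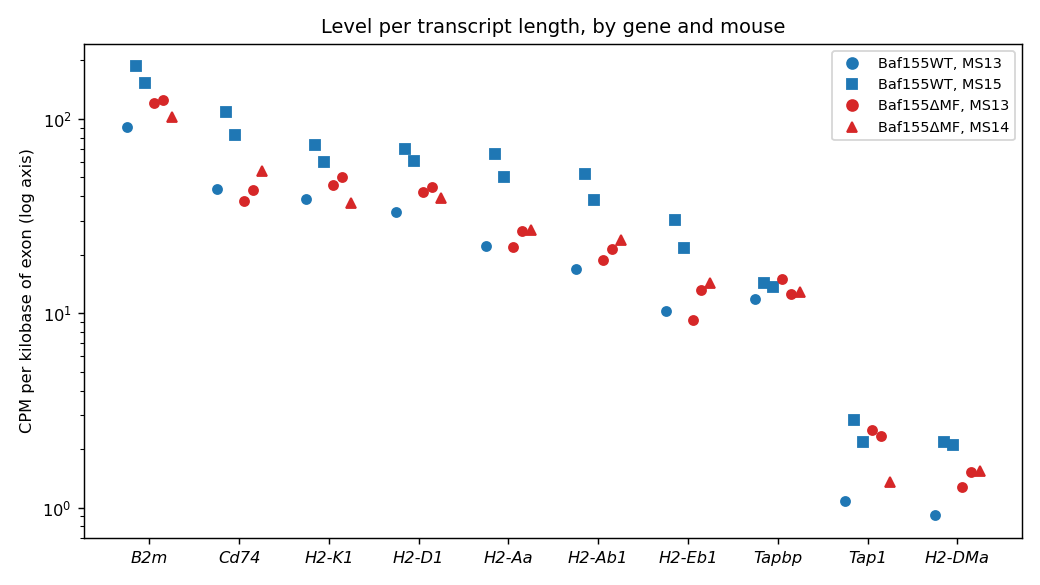
Level per kilobase of exon of the 10 genes in each of 6 mice, on a log axis, ordered by the mean. Each point is a mouse, with colour for genotype and marker shape for prefix, and the means run from 130 CPM per kilobase for *B2m* to 1.59 for *H2-DMa*.

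Ratios between the class II genes, and between *H2-K1*, *H2-D1* and *B2m*, ranged less than the summed levels of these genes. The summed level of the 5 class II genes was 127 CPM in the MS13 Baf155WT mouse, 348 and 262 CPM in the MS15 Baf155WT mice, and 120, 143 and 163 CPM in the Baf155ΔMF mice, a 2.90-fold range. Over the same mice the ratio of *H2-Eb1* to *H2-Ab1* kept to a 1.25-fold range and that of *Cd74* to *H2-Ab1* to a 1.27-fold range, whereas that of *H2-DMa* to *H2-Ab1* had a 1.69-fold range. The ratio of *H2-Aa* to *H2-Ab1* was 1.22, 1.19 and 1.22 in Baf155WT mice and 1.08, 1.16 and 1.05 in Baf155ΔMF mice, without overlap. The ratio of *H2-DMa* to *H2-Ab1* was 0.118, 0.0926 and 0.121 in Baf155WT mice and 0.150, 0.156 and 0.142 in Baf155ΔMF mice, also without overlap. In class I, *H2-K1* plus *H2-D1* over *B2m* was 1.72, 1.68 and 1.73 in Baf155WT mice and 1.58, 1.64 and 1.63 in Baf155ΔMF mice. Each of these 3 ratios gave an exact two-sided permutation p of 0.1, the smallest that 3 against 3 mice allow, and 0.5 after Benjamini-Hochberg adjustment over the 15 ratios computed, so none passed. The ratio of class II to class I, taken as *H2-Ab1* to *H2-K1*, was between 0.299 and 0.320 in the 3 MS13 mice and between 0.467 and 0.516 in the MS14 and MS15 mice of both genotypes.

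Markers of leukocytes moved with the class II genes. The summed level of 5 pan-leukocyte markers (*Ptprc*, *Coro1a*, *Laptm5*, *Tyrobp* and *Fcer1g*) was 21.5 CPM in the MS13 Baf155WT mouse, 62.7 and 47.7 CPM in the MS15 Baf155WT mice, and 22.5, 24.1 and 30.5 CPM in the Baf155ΔMF mice, a 2.92-fold range. The class II sum divided by this marker sum lay between 5.33 and 5.94 in all 6 mice, a 1.11-fold range, with 5.65 ± 0.219 in Baf155WT and 5.54 ± 0.346 in Baf155ΔMF mice (SD, n = 3 each; exact two-sided permutation p = 0.6). The sum of *H2-K1*, *H2-D1* and *B2m* divided by the same markers ranged more, from 6.85 and 7.51 in the MS15 mice to 11.9 and 11.8 in the MS13 Baf155ΔMF mice. Other ratios of class II to leukocyte genes also ranged more than 1.11-fold. The class II sum over the macrophage and dendritic cell markers listed below ran from 0.778 to 1.11, a 1.42-fold range. The ratio of *H2-Ab1* to *Ptprc* ran from 2.70 to 3.78, a 1.40-fold range. Both quantities of each ratio come from the same libraries, and the part of leukocyte number in the class II levels was not tested.

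Markers of class II-bearing cells included 15 macrophage and dendritic cell genes, of which 13 were tested. Of the 13, 10 were lower at an unadjusted p under 0.05, beside 4.6% of all genes tested, and 0 passed at an adjusted p under 0.05 (edgeR). The summed level of these markers was 139 to 399 CPM in Baf155WT and 129 to 210 CPM in Baf155ΔMF mice. Their median log2 fold change was -0.93 with all mice and -0.12 within MS13. B cell markers were near the limit of detection, with 0 of 8 genes tested and a summed level of 1.05 to 2.68 CPM, and *Pax5* had no count in 5 of the 6 mice. T cell and lymph node markers summed to 0.874 to 2.53 CPM, also with 0 of 9 genes tested. Endothelial markers, whose cells carry class I, were opposite in sign with all mice, with a median log2 fold change of 0.29. At an unadjusted p under 0.05, 2 of 6 endothelial genes were higher, beside 3.35% of all genes tested. Within MS13 the endothelial median was 0.03, with 3 of 6 genes negative. Fibroblast markers had a median of -0.30, with 2 of 6 genes lower at the same limit, beside 4.6% of all genes tested. Myofiber markers had a median of -0.13, with 1 of 8 higher, beside 3.35%. Within MS13 these medians were -0.08 for fibroblast and -0.04 for myofiber markers. DESeq2 and limma-voom called 0 genes of any list here or below. Without the MS13 Baf155WT mouse, 12 of 13 macrophage and dendritic cell markers and 4 of 5 pan-leukocyte markers were called lower and 4 of 6 endothelial markers were called higher at an adjusted p under 0.05 (edgeR), beside 4.17% of genes lower and 3.6% higher over all 12288 tested. In the same fit 3 of 6 fibroblast markers, 3 of 12 other class I heavy chains and 2 of 6 other class II pathway genes were called lower and 1 of 8 myofiber markers higher, and prefix and genotype cannot be told apart there.

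**Figure D4:**
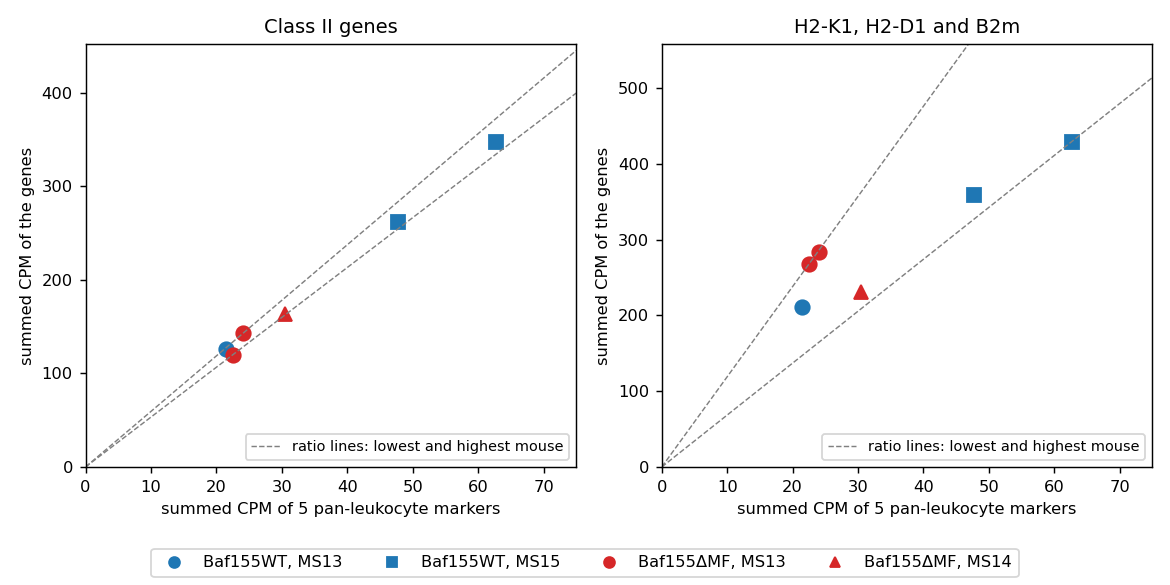
Summed CPM of the 5 class II genes and of *H2-K1*, *H2-D1* and *B2m* against the summed CPM of 5 pan-leukocyte markers, on linear axes that start at 0, with each point a mouse. The class II points lie between ratios of 5.33 and 5.94 to these 5 markers, and the ratios of the class I points range more.

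Of the 10 other class II pathway genes, 6 were tested and 0 passed at an adjusted p under 0.05 (edgeR). At an unadjusted p under 0.05, 2 of the 6 were lower (edgeR), beside 4.6% of all genes tested. These were *Ctss*, which encodes the protease cathepsin S that trims the invariant chain, and *March1*, which encodes a ubiquitin ligase that removes class II from the surface. *Ctss* was at 6.02, 19.8 and 13.9 CPM in Baf155WT and 4.59, 5.50 and 9.36 CPM in Baf155ΔMF mice (log2 fold change -1.06, adjusted p = 0.601, edgeR), with both MS15 mice highest. *March1* was at 2.14, 2.98 and 3.03 CPM in Baf155WT and 1.82, 1.14 and 1.75 CPM in Baf155ΔMF mice (-0.80, adjusted p = 0.601, edgeR). The genotypes did not overlap for *March1*, as for 5.57% of all genes tested in this direction, and its log2 difference within MS13 was -0.53. *Ctss* and *March1* were chosen after their values were seen. *H2-DMb1*, a partner chain of *H2-DMa*, was at 1.75, 5.81 and 5.71 CPM in Baf155WT and 2.35, 3.43 and 2.81 CPM in Baf155ΔMF mice (-0.65, adjusted p = 0.650, edgeR), the profile of *H2-DMa*. Its estimate was not whole in 6 of 6 mice. The near copy *H2-DMb2* was left out of the test for low counts, at 0.208 to 1.22 CPM.

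The 11 other genes of the class I pathway were all tested, and 0 passed at an adjusted or an unadjusted p under 0.05 (edgeR), with a median log2 fold change of 0.02 beside -0.00095 over all genes tested. *Tap2*, the partner of *Tap1* in the transporter, was at 8.36, 12.0 and 7.76 CPM in Baf155WT and 9.61, 8.72 and 11.3 CPM in Baf155ΔMF mice (log2 fold change 0.06). The ratio of *Tap1* to *Tap2* was 0.384 in the MS13 Baf155WT mouse and 0.351 in the MS14 Baf155ΔMF mouse, and 0.694 to 0.828 in the other 4 mice. The 3 immunoproteasome subunits gave log2 fold changes of 0.04 (*Psmb8*), 0.02 (*Psmb9*) and -0.15 (*Psmb10*). *Psmb8* was highest in an MS13 Baf155ΔMF mouse (11.0 CPM) and lowest in the MS13 Baf155WT mouse (4.66 CPM).

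Among 18 other class I heavy chains, 12 were tested and 0 passed at an adjusted p under 0.05 (edgeR). At an unadjusted p under 0.05, 1 of the 12 was lower (edgeR), beside 4.6% of all genes tested. That gene was *Hfe*, whose protein pairs with β2-microglobulin but senses iron through the transferrin receptor instead of presenting peptides. *Hfe* was at 23.9, 29.4 and 26.7 CPM in Baf155WT and 18.0, 20.4 and 20.0 CPM in Baf155ΔMF mice (log2 fold change -0.46 ± 0.11 SE, adjusted p = 0.591, edgeR). The genotypes did not overlap, as for 5.57% of all genes tested in this direction. The log2 difference of *Hfe* within MS13 was -0.32. Of the 12 tested heavy chains, 11 had a negative log2 fold change, beside 6083 of all 12116 genes tested. The median of the 12 was -0.31, but within MS13 the median was 0.26. The heavy chain genes of the K, D, Q and T regions are near copies of each other, unlike *Hfe*. The deposited estimate was not whole in 3 of 6 mice for *H2-K1* and in 6 of 6 for *H2-D1*, as happens where reads are shared between genes. With the 15 heavy chain genes of the K, D, Q and T regions summed into 1 row, the log2 fold change was -0.31 ± 0.20 SE (adjusted p = 0.666, edgeR).

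**Figure D5:**
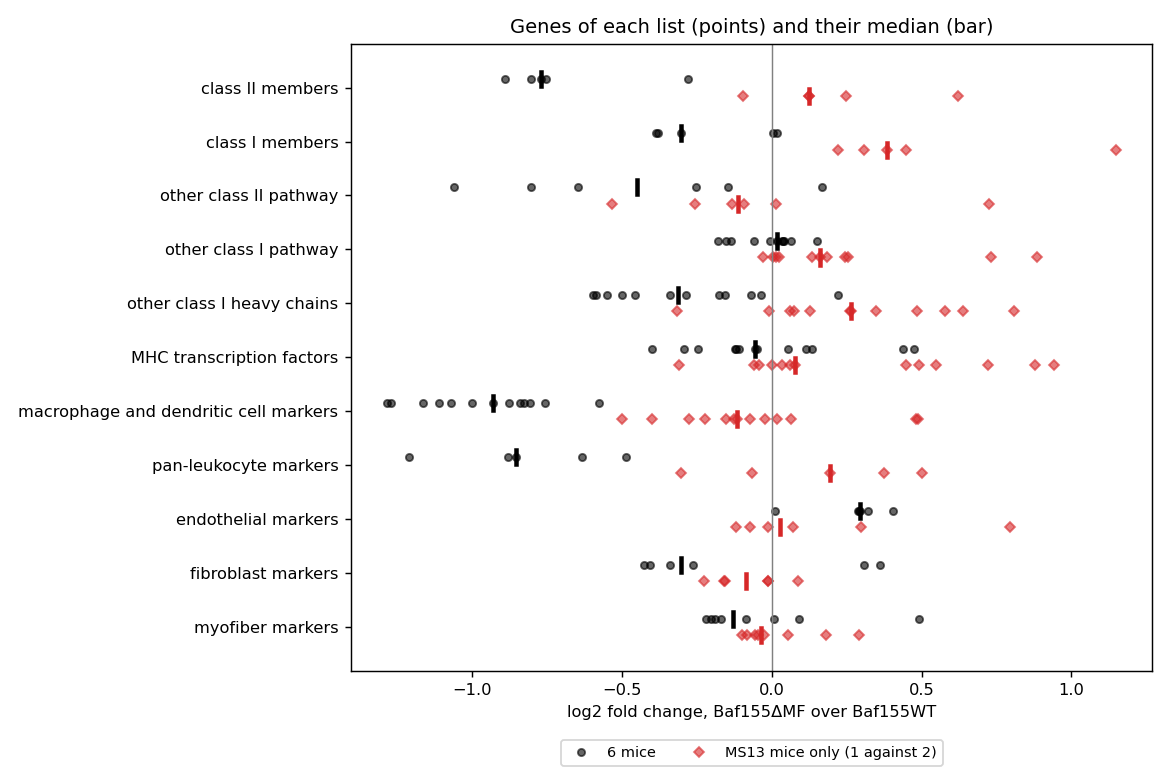
Log2 fold change of every tested gene of each list, Baf155ΔMF over Baf155WT, on a linear axis, with points for genes and bars for the median of a list, black for all 6 mice and red for MS13 alone. With all mice, class II genes (median -0.77), macrophage and dendritic cell markers (-0.93) and pan-leukocyte markers (-0.85) lie lowest, and the other class I pathway genes (0.02) lie at the median of all genes.

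The transcription factors of the MHC were measured in all 6 mice, and 0 of 13 passed at an adjusted p under 0.05 (edgeR). *Ciita*, the switch of class II genes, was at 2.53, 6.12 and 5.35 CPM in Baf155WT and 5.02, 3.32 and 5.38 CPM in Baf155ΔMF mice (log2 fold change -0.05, adjusted p = 0.962, edgeR). *Nlrc5*, its class I counterpart, was at 2.91, 8.49 and 7.05 CPM in Baf155WT and 6.94, 4.26 and 2.92 CPM in Baf155ΔMF mice (-0.40, adjusted p = 0.757, edgeR). Both were highest in an MS15 Baf155WT mouse and lowest in the MS13 Baf155WT mouse, which for *Nlrc5* was level with the MS14 Baf155ΔMF mouse. The RFX subunits gave log2 fold changes of 0.13 for *Rfx5*, -0.11 for *Rfxap* and -0.25 for *Rfxank*. Only *Rfxank* among these 3 had no overlap between genotypes, at 9.95 to 11.8 CPM in Baf155WT and 8.20 to 9.82 CPM in Baf155ΔMF mice. The NF-Y subunit gene *Nfyb* also had none, at 25.7 to 26.8 and 21.3 to 25.6 CPM. All Baf155ΔMF mice lay below all Baf155WT mice for 2 of the 13 factors, beside 5.57% of all genes tested.

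The 2 of 13 transcription factors higher at an unadjusted p under 0.05, beside 3.35% of all genes tested, were the interferon regulatory factors *Irf1* and *Irf2*. *Irf1*, an activator of class I genes, was at 8.55, 13.1 and 9.55 CPM in Baf155WT and 17.6, 13.8 and 12.2 CPM in Baf155ΔMF mice (log2 fold change 0.47 ± 0.18 SE, adjusted p = 0.601, edgeR). *Irf2*, which binds the same element, was at 8.55, 8.65 and 9.82 CPM in Baf155WT and 12.7, 11.3 and 12.6 CPM in Baf155ΔMF mice (0.44 ± 0.13 SE, adjusted p = 0.601, edgeR). The genotypes did not overlap for *Irf2*, as for 630 of all 12116 genes tested in this direction. Within MS13 the log2 difference was 0.88 for *Irf1* and 0.49 for *Irf2*. In the *B2m* promoter shown above, the element in capitals is of the kind that IRF1 and IRF2 are known to bind, and no binding was measured here.

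The genes whose log2 CPM was most like that of *H2-Ab1* over the 6 mice were *Hpse* (Pearson r = 0.997), *Mpeg1* (0.995) and *Mab21l1* (0.990), and without the MS15 mice these r were 0.985, 0.962 and 0.947 over 4 mice. *Mpeg1* encodes perforin-2 of macrophages, at 8.26, 21.8 and 16.6 CPM in Baf155WT and 8.33, 9.24 and 10.2 CPM in Baf155ΔMF mice. *Hpse* encodes heparanase, an enzyme that cuts heparan sulfate, and its highest count in a mouse was 62. Nearest to *H2-K1* were *Tuba8* (0.991), *H2-T22* (0.991), a class I heavy chain whose reads may be shared with *H2-K1*, and *Plscr2* (0.990). *Tuba8*, an α-tubulin, had a small range of 207 to 221 CPM, and so had *Mab21l1*, at 6.30 to 7.35 CPM. *Plscr2* had only 10 to 31 counts in a mouse. These r are descriptions between genes measured in the same libraries, chosen as the highest of 12116 genes, and carry no p.

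Some of the genes overlap others in the annotation, and the strand setting of the deposited counting is not given in the sources used here. *Tap1* overlaps *Psmb9*, *B2m* overlaps *Patl2* and *H2-DMa* overlaps *Brd2* on the opposite strand, while *Tapbp* overlaps *Zbtb22* on its own strand, and its estimate was not whole in 6 of 6 mice. For *Cd74*, *H2-Aa*, *H2-Ab1*, *H2-Eb1*, *H2-DMa*, *B2m* and *Tap1* the estimates were whole in all 6 mice.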

How the data were processed

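TruSeq Stranded Total RNA libraries of 6 mice were sequenced on an Illumina HiSeq instrument. The authors deposited expected counts per gene symbol, not normalized, in 1 table, whose column of totals over the mice was not used. The submitters' processing notes name CASAVA 1.8.2, cutadapt 1.10, Bowtie2 2.2.7, TopHat2 2.1.1, RSEM 1.2.30, limma and the builds mm10 and GRCm38, without their order or role.

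Expected counts were rounded to whole counts (2919 of 20632 genes had a fractional estimate) and fitted in edgeR 4.0.16 (R 4.3.3) with filterByExpr (minimum count 10, minimum total 15), TMM scaling (factors 0.958 to 1.05), quasi-likelihood F test without covariates, and Benjamini-Hochberg adjustment over 12116 genes. The common dispersion gave a biological coefficient of variation of 0.111. The code was tested on simulated counts. The paper's methods name no test for these data. Alternatives changed the tool (DESeq2 1.42.0 or voom in limma 3.58.1), the scaling, the filter, the covariate or the mice. Class scores are mean log2 CPM with a prior count of 2. Replicates were separate mice, and no pair of libraries of 1 genotype agreed within sampling noise.

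The genes and lists were chosen with earlier results of these data known. Beside the 10 genes, the text names *Smarcc1*, set regulators and partners, pathway genes with an unadjusted p under 0.01, and the 3 genes most correlated with *H2-Ab1* and with *H2-K1*. Any other gene was picked with its values in view. Lengths and positions come from GENCODE M21, and promoters from RefSeq.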

Additional observations from a re-analysis of the deposited data

How the results depend on the processing

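Of the 10 genes, none changed its side of the threshold under another scaling, filter or tool, and 7 were called only when the MS13 Baf155WT mouse (Baf155WT replicate 1) was left out. With the title prefix as covariate the sign turned for *B2m* (0.45), *H2-Aa* (0.13), *H2-Ab1* (0.25), *H2-D1* (0.39), *H2-DMa* (0.62), *H2-Eb1* (0.13) and *H2-K1* (0.31). Without both MS15 mice it turned for *Cd74* (0.050), *H2-Aa* (0.17), *H2-Ab1* (0.33), *H2-Eb1* (0.24), *H2-DMa* (0.66), *H2-K1* (0.19), *H2-D1* (0.34) and *B2m* (0.36). *Tap1* and *Tapbp*, near 0 in the main comparison, turned with library size only (-0.072 and -0.051), without Baf155WT replicate 1 (-0.28 and -0.06) and without Baf155ΔMF replicate 1 (-0.15 and -0.067), and *Tap1* also with upper-quartile scaling (-0.014) and without Baf155ΔMF replicate 2 (-0.09). With a mouse left out, *Tap1* ranged from -0.28 to 0.33 and *Tapbp* from -0.067 to 0.081. The causes of these turns were not tested.

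The mean log2 CPM of the class II genes was 4.95 in Baf155WT and 4.37 in Baf155ΔMF mice, a difference of -0.57, from -0.997 to -0.27 when a mouse was left out, and 0.27 without both MS15 mice. For the class I genes the difference was -0.16, from -0.43 to 0.04 when a mouse was left out, and 0.37 without both MS15 mice. Genes called at an adjusted p under 0.05 numbered 3, against 17 without a filter, 16 with the prefix as covariate, 16 without both MS15 mice, 22 with DESeq2, 5 with limma-voom and 8 at an adjusted p under 0.1. Leaving out a mouse gave 0 to 955 genes: 955 without Baf155WT replicate 1, and 0 without Baf155WT replicate 2 (451 at an unadjusted p under 0.05) or without Baf155ΔMF replicate 2 (568). No paired analysis was possible because the numbers in the sample titles do not pair mice of the 2 genotypes, and only the prefix MS13 holds both. Groups of 3 mice are too small for a test of outlying values, and counts of 25 to 109 limit *H2-DMa* and *Tap1*.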
